A study of Mus musculus with 23 samples.

Results

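Cdkn1a and p53 target genes were followed as a set of 8 among the 21878 genes in the tables of sorted mouse neutrophils and the 55335 in the table of whole lung. The members were *Cdkn1a*, *Mdm2*, *Ccng1*, *Trp53inp1*, *Btg2*, *Phlda3*, *Gadd45a* and *Gadd45b*. They were chosen by name as p53 targets, with the FPKM of *Cdkn1a* in blood neutrophils of WT and *Piezo1*-cKO mice already in view, so for that contrast their values are given as a description with no test. Bulk RNA-Seq had been run on 23 libraries in 3 experiments, all from mice, and the study asked how the lung circulation and the mechanosensitive channel PIEZO1 shape neutrophil transcription. In the tissue comparison, CD45+CD11b+Ly6G+ neutrophils were sorted from perfused WT lung, peripheral blood (PB) and bone marrow (BM), with 3 libraries per tissue. In the *Piezo1* experiment, the same gate was applied to lung and PB of WT mice and of mice whose loxP-flanked *Piezo1* was deleted by *Vav1-iCre*, with 2 libraries in each of the 4 groups. *Vav1-iCre* is active in all hematopoietic cells, so the deletion in cKO mice was not restricted to neutrophils. In the third experiment, whole lung was sequenced in 3 libraries of control mice and 3 of mice depleted of neutrophils by an antibody to Ly6G, which leaves some neutrophils in place. The paper's depletion method uses isotype antibody for its controls, while the labels of these control libraries say only wt. C57BL/6J was the wild-type strain of the study, mice of both sexes were used, and neither the age nor the sex behind each library is given. The labels write only wt for the WT group of the *Piezo1* experiment, and elsewhere in the study *Piezo1* fl/fl mice serve as WT. The study counts 3 mice for the tissue comparison. Nothing in the labels says that the libraries of a group came from separate animals, so the p-values measure the spread between these libraries, which may be technical in the other experiments.

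The transcription factor p53, encoded by *Trp53*, is held at low levels by MDM2, a ubiquitin ligase that is itself a p53 target and so closes a feedback loop. When DNA damage or other stress stabilises p53, it switches on genes that stop the cell cycle, repair DNA or start cell death. *Cdkn1a* encodes p21, the inhibitor of cyclin-dependent kinases through which p53 arrests cells. Several of these targets, including *Cdkn1a*, *Btg2* and the *Gadd45* genes, are also induced by other signals in cells that no longer divide, such as mature neutrophils.

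The promoters of the members with the largest values in the results are shown as 1 of the places where a p53 site can lie. Each is the 250 bases before an annotated start in RefSeq on GRCm38.p6, 5′ to 3′ on the strand of the gene, with matched motifs in capitals. *Cdkn1a* has 2 annotated starts. Window 1 lies at chr17:29090729-29090978 on the plus strand, before the start of the gene, and its capitals mark 2 p53 half-sites. Window 2 lies at chr17:29093519-29093768 on the plus strand, inside the span of the gene and before the second start, and its capitals mark GC boxes (GGGCGG).
Cdkn1a window 1: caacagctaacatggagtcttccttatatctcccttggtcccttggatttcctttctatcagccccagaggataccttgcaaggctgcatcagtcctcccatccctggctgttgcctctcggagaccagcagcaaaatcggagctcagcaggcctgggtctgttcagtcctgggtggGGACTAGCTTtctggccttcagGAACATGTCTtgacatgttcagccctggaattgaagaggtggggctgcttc
Cdkn1a window 2: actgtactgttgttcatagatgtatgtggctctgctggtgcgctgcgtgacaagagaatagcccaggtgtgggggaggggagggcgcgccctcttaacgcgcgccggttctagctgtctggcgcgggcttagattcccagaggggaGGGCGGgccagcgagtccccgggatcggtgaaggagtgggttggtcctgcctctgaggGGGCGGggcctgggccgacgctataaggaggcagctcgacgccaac
The promoter of *Gadd45b*, at chr10:80929841-80930090 on the plus strand, holds CCAAT boxes (CCAAT), a GC box and a TATA box (TATAAA), all in capitals. That of *Btg2*, at chr1:134079156-134079405 on the minus strand, holds a cyclic AMP response element (CRE, TGACGTCA), GC boxes and CCAAT boxes.
Gadd45b: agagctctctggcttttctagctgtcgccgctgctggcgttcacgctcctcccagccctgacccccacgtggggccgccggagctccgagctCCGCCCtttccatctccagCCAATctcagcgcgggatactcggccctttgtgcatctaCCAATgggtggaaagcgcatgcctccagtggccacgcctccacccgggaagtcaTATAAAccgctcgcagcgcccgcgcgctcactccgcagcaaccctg
Btg2: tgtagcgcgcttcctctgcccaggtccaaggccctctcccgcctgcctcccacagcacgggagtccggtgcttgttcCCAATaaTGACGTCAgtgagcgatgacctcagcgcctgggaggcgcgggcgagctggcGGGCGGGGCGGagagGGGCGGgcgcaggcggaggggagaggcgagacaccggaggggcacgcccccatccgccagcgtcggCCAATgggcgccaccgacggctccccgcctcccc
The promoter of *Mdm2*, at chr10:117710759-117711008 on the minus strand, is shown beside them as that of the p53 antagonist, with 1 p53 half-site, GC boxes and a CCAAT box in capitals.
Mdm2: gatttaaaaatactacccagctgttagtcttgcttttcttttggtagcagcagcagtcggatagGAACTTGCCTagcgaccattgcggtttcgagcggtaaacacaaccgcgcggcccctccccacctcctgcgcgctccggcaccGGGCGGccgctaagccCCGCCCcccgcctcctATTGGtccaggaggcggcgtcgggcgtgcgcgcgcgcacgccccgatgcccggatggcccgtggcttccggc

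Windows were found for 7 of the 8 members, 8 windows in all, and not for *Trp53inp1*. A p53 half-site was matched in 4 of the 8 windows, those of *Mdm2*, *Ccng1* and *Gadd45a* and window 1 of *Cdkn1a*, against 7.13% of the 32851 promoter windows of the same length. Window 1 of *Cdkn1a* held 2 half-sites, 73 to 64 and 51 to 42 bases before the start, with 12 bases between them. Only exact matches of the half-site pattern were counted, so a site with a mismatch is not marked. A pair of half-sites at most 13 bases apart was present in 0.0639% of all windows, 21 of them. The other motifs, searched on both strands except where said, were in 6 of 8 member windows for the GC box (32.7% of all windows), 5 for the CCAAT box (33.8%) and 1 for the CRE (1.55%). The TATA box, searched on the forward strand, was in 1 (7.59%). The AP-1 site (TGANTCA), the NF-kB site and the CArG box were in 0 of the 8 windows and in 6.75%, 7.25% and 1.47% of all windows. A match describes the letters in these windows and is not evidence that a factor binds there.

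Levels are given as deposited, in FPKM, which divides fragments by transcript length and library total and so can be compared between genes. Differences are on the log2(FPKM + 1) scale. A gene was called when the adjusted p of limma was below 0.05 and the log2 difference exceeded 1 in size, or 0.5 in whole lung. Recovered reads per sorted library numbered 16502162 to 19330811 for the tissues of WT mice. They numbered 9621120 to 15034817 in the *Piezo1* experiment, and cKO PB replicate 1 was the shallowest. Lung neutrophils had a lower median gene than the other tissues, by 0.70 on the log2 scale against BM and 0.54 against PB, while PB lay 0.12 below BM. In the *Piezo1* experiment the median gene of lung lay 0.62 below PB in WT and 0.54 below PB in cKO. Where scaling changes the direction of a member, the difference after rescaling the libraries by their median ratio is given too. A gene whose mean reached 1 FPKM in only 1 of the groups compared passed the filter through that group alone and so had to differ, and its difference is given with no test. *Ly6g*, which defines the gate, was detected in all sorted libraries. *Piezo1* had 3 to 10 reads in each library of the *Piezo1* experiment, WT and cKO alike, so the deletion could not be checked at this depth.

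*Cdkn1a* (chromosome 17, 29090979 to 29100722), the p21 gene, was the member whose level depended most on tissue. In the tissue comparison it was 162, 160.3 and 167 FPKM in the lung libraries, 2.55, 2.43 and 3.25 in PB and 0.512, 0.737 and 0.348 in BM. The 3 tissues did not overlap, and lung stood apart from both others. The mean was 163 ± 3.28 FPKM in lung, 2.74 ± 0.443 in PB and 0.532 ± 0.195 in BM (SD, n = 3 each). The lung mean was 59.5-fold that of PB, a log2 difference of 5.46 (SE 0.085, limma adjusted p = 1.6e-09). Every BM library was under 1 FPKM, so *Cdkn1a* entered both comparisons with BM only through the other tissue, and its log2 differences of 6.75 for lung and 1.29 for PB are descriptions. The BM value rested on 20, 29 and 13 reads per library, the PB value on 92, 91 and 123, and the lung value on 5664, 5600 and 5600. *Cdkn1a* ranked 367 among the 13371 genes detected in lung neutrophils by mean FPKM, 6072 of 13465 in PB and 8846 of 13312 in BM. By log2 difference it ranked 8 of 7577 genes for lung over PB and 14 of 8236 for lung over BM.

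The *Piezo1* experiment held a separate set of lung and PB libraries, in which the WT levels of *Cdkn1a* were 387 and 389 FPKM in lung and 5.74 and 6.25 in PB. All 4 values lay above those of the same tissue in the tissue comparison, and the levels of both experiments were not set against each other in a test. The WT lung mean was 64.8-fold the WT PB mean, a log2 difference of 5.80. In cKO mice the lung libraries had 347 and 356 FPKM and the PB libraries 1.17 and 1.25. The cKO lung mean was 290.0-fold the cKO PB mean, a log2 difference of 7.32. Both ratios rest on the PB values that were in view when the set was chosen, so they are descriptions with no test.

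**Figure D1:**
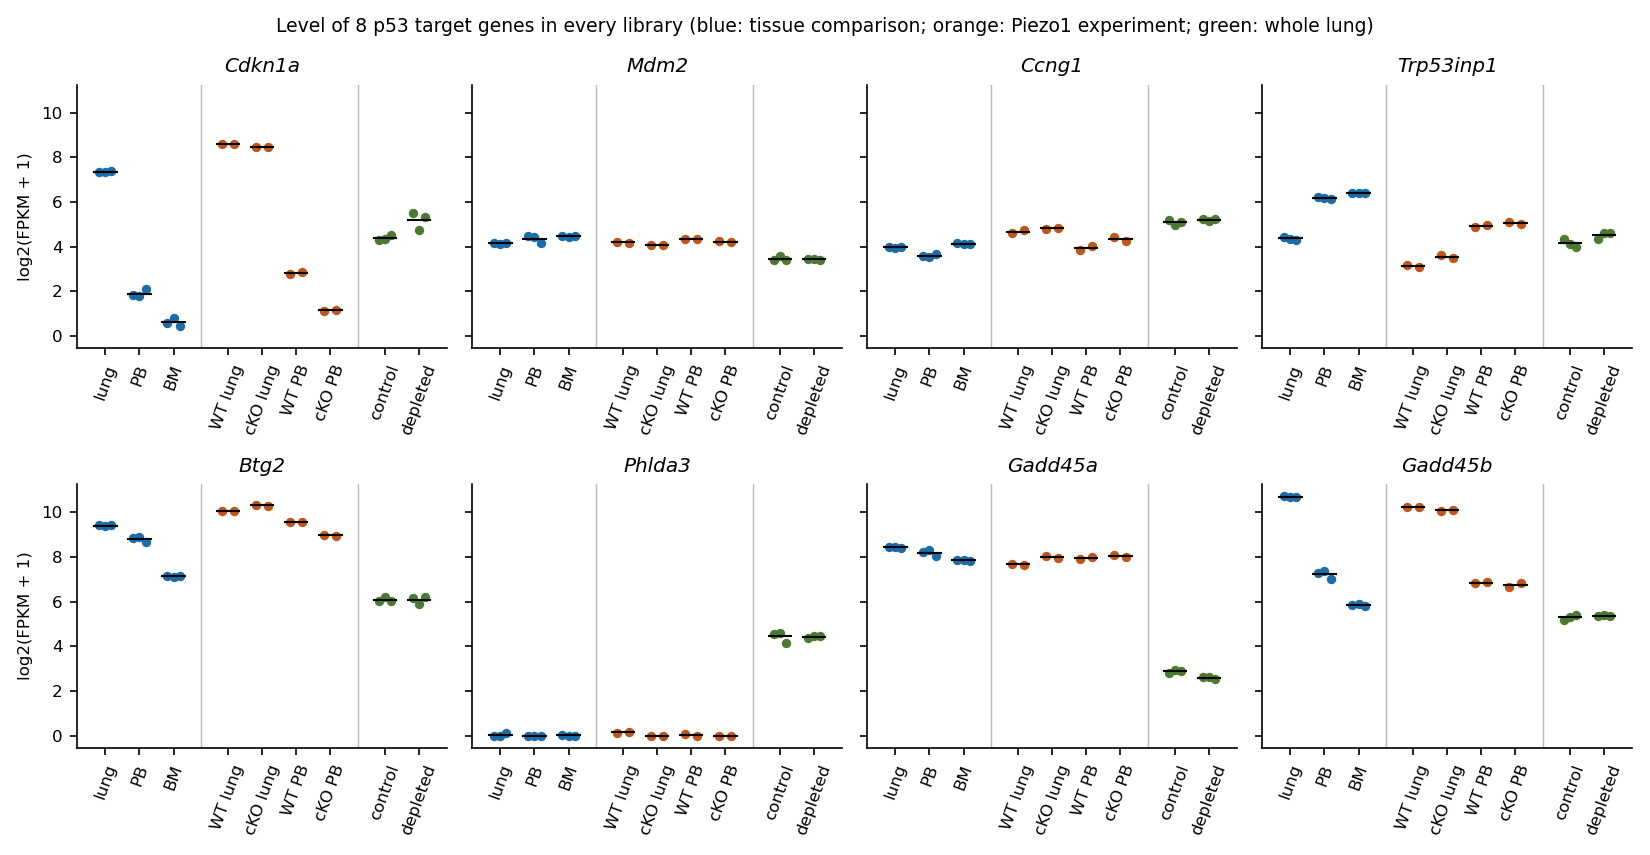
The level of each of the 8 members, as log2(FPKM + 1), in every library, with 1 point per library and a bar at the mean of each group. *Cdkn1a* and *Gadd45b* stand highest in the sorted lung groups, *Trp53inp1* stands lower there than in PB or BM, and *Phlda3* is above 0 mainly in whole lung.

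*Gadd45b* (chromosome 10, 80930091 to 80932204) encodes a small stress-response protein that acts on MAP kinase signalling and DNA demethylation. It was 1689, 1655 and 1628 FPKM in lung, 156, 167 and 127 in PB and 56.1, 57.9 and 55.5 in BM. It was the most abundant member in lung neutrophils, at rank 30 of 13371 genes, and the tissues did not overlap. Its lung mean was 11.1-fold the PB mean, a log2 difference of 3.47 (SE 0.096, limma adjusted p = 2.76e-08). The log2 difference was 4.85 for lung over BM (SE 0.024, limma adjusted p = 1.31e-15) and 1.38 for PB over BM (SE 0.096, limma adjusted p = 4.72e-06). The corresponding values in the *Piezo1* experiment were 1210.5 and 1204 FPKM in WT lung and 113 and 117 in WT PB, a 10.5-fold ratio of means and a log2 difference of 3.39 (limma adjusted p = 1.51e-10). The cKO values were 1066 and 1111 in lung and 100.5 and 114 in PB, with a log2 difference of 3.33 (limma adjusted p = 1.03e-07).

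*Btg2* (chromosome 1, 134074865 to 134079155) encodes an antiproliferative protein that recruits the CCR4-NOT deadenylase to mRNA. It was 684, 669.8 and 687 FPKM in lung, 463, 481 and 409.8 in PB and 141, 139 and 139 in BM. Both lung and PB thus lay above BM in every library, by a log2 difference of 2.28 for lung (SE 0.020, limma adjusted p = 5.53e-14) and 1.68 for PB (SE 0.068, limma adjusted p = 2.18e-07). The step between lung and PB was 0.59 on the log2 scale (limma adjusted p = 6.75e-05), under the fold set for a call, and 1.19 after rescaling by the median ratio. *Btg2* in the *Piezo1* experiment was 1069.9 and 1071 FPKM in WT lung and 747 and 757 in WT PB, 1274 and 1260.1 in cKO lung and 511 and 492 in cKO PB. The lung over PB log2 difference was 0.51 in WT and 1.34 in cKO (SE 0.037 in cKO, limma adjusted p = 4.38e-07). Relative to the median gene these differences were 1.13 and 1.88.

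*Gadd45a* (chromosome 6, 67035096 to 67037407), a paralogue of *Gadd45b* and the first of the family linked to p53, was expressed at a high and flatter level. It was 350.4, 347 and 342 FPKM in lung, 298, 318 and 265 in PB and 233, 229 and 229 in BM. The order of tissues was that of *Cdkn1a*, with log2 differences of 0.59 for lung over BM (limma adjusted p = 1.11e-09), 0.34 for PB over BM and 0.24 for lung over PB (limma adjusted p = 0.0123). None reached the fold for a call. The order of the tissues in the *Piezo1* experiment depended on the scaling. There *Gadd45a* was 208 and 199.6 FPKM in WT lung and 239.5 and 252 in WT PB, a log2 difference of −0.27 that became 0.37 after rescaling by the median ratio. In cKO it was 260.2 and 249 in lung and 276 and 255 in PB, where the libraries overlapped, a log2 difference of −0.06 that became 0.52 on the rescaled values.

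*Trp53inp1* (chromosome 4, 11156441 to 11174379), which encodes a nuclear protein that enhances p53 activity and takes part in autophagy, ran the opposite way. It was 20.6, 19.5 and 18.7 FPKM in lung, 72.6, 71.7 and 68.6 in PB and 83.1, 83.9 and 83.2 in BM. Lung lay below both other tissues in every library, with log2 differences of −1.81 against PB (SE 0.056, limma adjusted p = 4.35e-08) and −2.04 against BM (SE 0.038, limma adjusted p = 1.24e-11). The second lung and PB set gave 7.99 and 7.41 in WT lung against 28.8 and 29.8 in WT PB, a log2 difference of −1.80 (limma adjusted p = 1.99e-07). In cKO it was 11.2 and 10.3 in lung against 33.9 and 31.6 in PB, a log2 difference of −1.52 (limma adjusted p = 3.9e-06) that became −0.97 after rescaling by the median ratio.

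*Mdm2* (chromosome 10, 117688875 to 117710758), which encodes the p53 ubiquitin ligase, varied little. It was 17.0, 16.5 and 17.0 FPKM in lung, 21.2, 20.3 and 16.7 in PB and 21.3, 20.4 and 21.5 in BM. The PB libraries spanned the interval between the other tissues. The log2 difference of lung was −0.31 against BM (limma adjusted p = 3.62e-05) and −0.19 against PB (limma adjusted p = 0.0823), and after rescaling by the median ratio these became 0.32 and 0.38, so no direction between lung and the other tissues can be given. Its FPKM in the second set was 17.8 and 17.0 in WT lung, 19.4 and 19.1 in WT PB, 15.8 and 15.8 in cKO lung and 17.9 and 17.6 in cKO PB.

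*Ccng1* (chromosome 11, 40748552 to 40755309) encodes cyclin G1, which binds MDM2 and a regulatory subunit of protein phosphatase 2A. It was 14.8, 14.3 and 14.7 FPKM in lung, 10.9, 10.5 and 11.6 in PB and 17.0, 16.2 and 16.2 in BM, so PB was the lowest tissue. Lung over PB was 0.38 on the log2 scale (limma adjusted p = 0.000531) and lung over BM −0.16 (limma adjusted p = 0.00389), the latter turning to 0.46 after rescaling by the median ratio. Its levels in the second set were 23.6 and 25.5 in WT lung and 13.6 and 15.2 in WT PB, 26.6 and 27.7 in cKO lung and 20.2 and 18.3 in cKO PB. Lung was above PB in both genotypes, by 0.73 in WT and 0.47 in cKO, or 1.35 and 1.02 relative to the median gene.

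*Phlda3* (chromosome 1, 135766085 to 135769134), whose product competes with AKT for membrane lipids, was at most 3 reads in any sorted library and did not pass the expression filter. The reads were 0, 0 and 2 in lung, 0 in every PB library of the tissue comparison and 1, 0 and 0 in BM. They were 2 and 3 in WT lung and 1 and 0 in WT PB of the *Piezo1* experiment, and 0 in all 4 cKO libraries. It was thus at or near the floor of 3 reads in neutrophils of every tissue, and no difference was detectable at this depth.

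Of the 7 members that passed the filter, 3 were called higher in lung than BM (*Cdkn1a*, *Gadd45b* and *Btg2*) and 1 lower (*Trp53inp1*), where 9.86% of 8236 genes were called higher and 36.0% lower. For PB over BM, 3 were called higher and 0 lower, against 7.85% and 14.1% of 8237 genes. Without *Cdkn1a*, which passed only through the higher tissue, 6 members are left, with 2 higher and 1 lower for lung and 2 higher and 0 lower for PB. For lung over PB, *Cdkn1a* and *Gadd45b* were called higher and *Trp53inp1* lower, against 7.75% and 19.5% of 7577 genes. In WT of the *Piezo1* experiment, *Gadd45b* was again called higher and *Trp53inp1* lower, against 7.50% higher and 26.5% lower of 7143 genes. In cKO, *Gadd45b* and *Btg2* were called higher and *Trp53inp1* lower, against 7.93% and 23.0% of 7163 genes. The lower call is lost after rescaling, at −0.97. *Btg2* missed the call in WT at 0.51, which was 1.13 relative to the median gene, so its call in cKO only depends on scaling. *Cdkn1a*, whose PB values were in view, is left out of these calls of the *Piezo1* experiment. The split of all genes depended on scaling. After rescaling by the median ratio, lung over BM went from 812 higher and 2965 lower to 1359 and 1415, and lung over PB from 587 and 1476 to 902 and 499. For lung over PB of the second set it went from 536 and 1893 to 869 and 746 in WT and from 568 and 1644 to 920 and 606 in cKO.

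**Figure D2:**
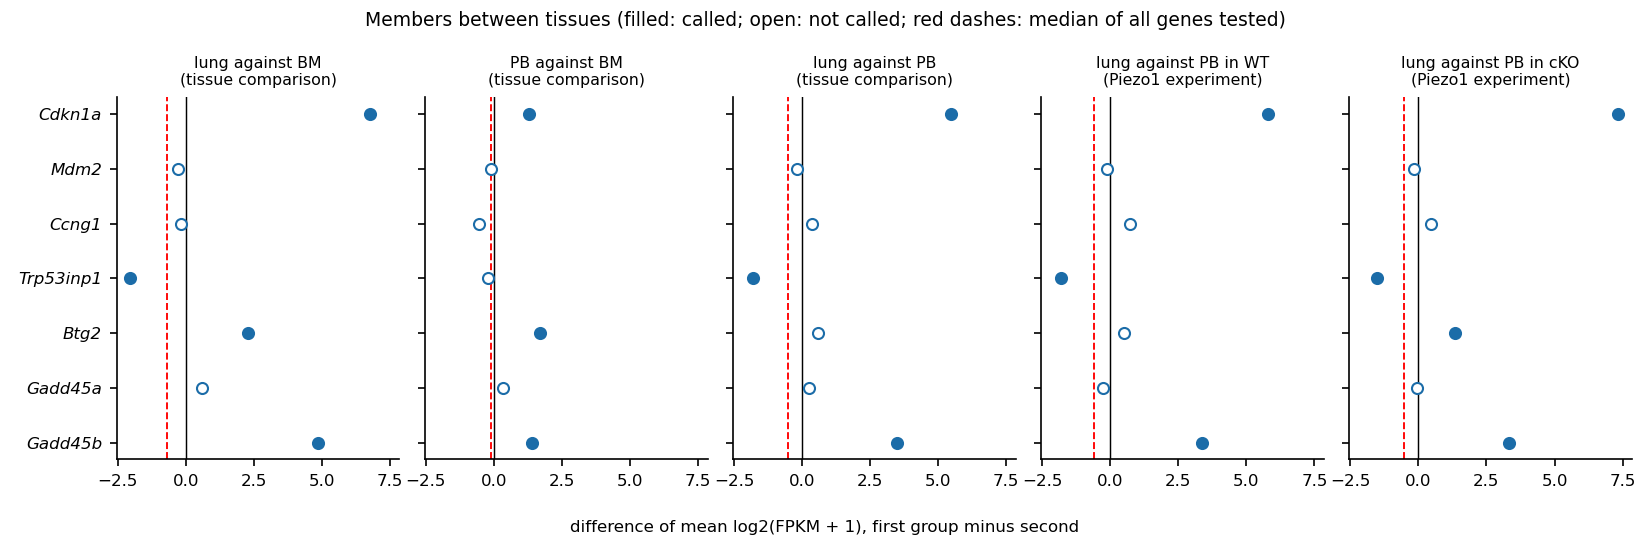
Difference of mean log2(FPKM + 1), first group minus second, of the 7 tested members in 5 comparisons of tissues, with filled points for called genes, open points for genes not called and red dashes at the median of all genes tested. *Cdkn1a* lies at 6.75, 1.29, 5.46, 5.80 and 7.32, whereas *Mdm2*, *Ccng1* and *Gadd45a* lie between −0.54 and 0.73. Rescaling flips the direction of *Mdm2* in the 4 panels with lung, of *Ccng1* for lung over BM and of *Gadd45a* in both *Piezo1* panels. In the panels with BM and in both *Piezo1* panels the point of *Cdkn1a* is a description, whatever its fill.

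Marker lists of several cell types differed between tissues. The neutrophil list summed to 145119 to 163265 FPKM in BM, 57979 to 74989 in PB and 43920.1 to 48125 in lung. Of its 10 genes 9 were called lower in lung than BM, against 36.0% of all genes. The monocyte or macrophage list also summed highest in BM (675 to 814), with 253 to 302 in PB and 188 to 193 in lung. Its genes did not all follow the sum. Of the 3 that did not pass through 1 tissue alone, 2 were called higher in lung than BM and 1 lower. The counts were the same for PB against BM. The dendritic cell and MHC class II list summed to 173 to 186 FPKM in lung, 11.02 to 16.2 in PB and 8.72 to 10.002 in BM. Of its 7 genes 4 passed the filter for lung over PB, *H2-Aa*, *H2-Eb1* and *H2-Ab1* only through lung and *Cd74* in both tissues, where it was called higher (2.49). For the *Piezo1* libraries it summed to 283 to 294 in WT lung and 13.5 to 14.2 in WT PB. The dendritic cell gene *Xcr1* was at 0 in all 9 libraries of the tissue comparison. It was the only gene of the list at 0 throughout a tissue, and the others were detected in each tissue. The part of these transcripts in the member differences was not tested, and in bulk samples fewer cells of a type and less RNA per cell cannot be told apart. Lung was digested with enzymes before sorting, while PB went through red cell lysis. The paper describes a negative selection kit ahead of the sort for PB and lung, and names BM only for the sort. The part of these steps in the differences between tissues was not tested. The list of immediate early and dissociation genes, which respond to handling as well as to stimulation in the animal, summed to 13225 to 13386 FPKM in lung, 13316 to 15258 in PB and 2619.9 to 2668 in BM. Of its 18 genes, 15 were called higher in lung than BM and 17 in PB than BM, or 12 and 14 of the 15 that did not pass through 1 tissue alone, with *Fosb*, *Nr4a1* and *Atf3* at 6.95, 6.34 and 5.31 for lung. Over all genes, 9.86% were called higher in lung than BM and 7.85% in PB than BM. Between lung and PB, 3 were called higher in lung (*Nr4a1* 2.63, *Ier3* 2.02 and *Fosb* 1.82) and 3 lower, against 7.75% and 19.5% of all genes. Their part in the member differences was not tested.

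Among p53 and its regulators, *Trp53* was low in all tissues, at 4.12, 3.22 and 3.69 FPKM in lung, 4.78, 5.07 and 3.54 in PB and 6.33, 5.79 and 6.68 in BM. Lung over PB was −0.22 on the log2 scale (limma adjusted p = 0.145), with overlapping libraries, and lung over BM −0.64 (limma adjusted p = 3.86e-05). Relative to the median gene these differences were 0.32 and 0.07, so no direction of *Trp53* between lung and the other tissues can be given. Of the 12 genes of the list that were tested, 0 were called higher and 5 lower in lung than PB, against 7.75% and 19.5% of all genes. The lower ones were led by *Ep300* (−1.60), a p53 acetyltransferase, *Ppm1d* (−1.60), the phosphatase that switches p53 off, and *Sirt1* (−1.56), a p53 deacetylase. The median of the list was −0.54, equal to the median of all genes at this precision. Against BM, 5 were lower in lung, where 36.0% of all genes were called lower. These were led by *Hipk2* (−1.95), a p53 kinase, *Mdm4* (−1.65), the partner of MDM2, and *Ep300* (−1.57). Limma-voom on the recovered reads called 1 gene of the list against BM and 3 against PB, where over all genes it called 3638 of 8236 and 1928 of 7577.

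The targets for arrest and metabolism divided. The polo-like kinases *Plk3* and *Plk2* followed the order of *Cdkn1a*: *Plk3* was 914 ± 13.7 FPKM in lung, 176 ± 22.6 in PB and 31.5 ± 1.78 in BM, and *Plk2* was 168 ± 2.88, 44.9 ± 2.08 and 2.86 ± 0.224 (SD, n = 3 each). They were the 2 of 8 tested genes called higher in lung than PB, by 2.38 (limma adjusted p = 1.47e-07) and 1.88 (limma adjusted p = 2.76e-08) on the log2 scale. *Trp53i13*, induced by p53 under DNA damage, was the 1 called lower, by −1.14. Over all genes, 7.75% were called higher and 19.5% lower. In the *Piezo1* experiment *Plk3* was 738 FPKM in WT lung and 36.5 in WT PB, a log2 difference of 4.30 (limma adjusted p = 8.57e-11), and *Plk2* differed by 1.86. *Sesn1*, a stress-induced inhibitor of mTORC1, was 0.160 FPKM in WT lung and 2.66 in WT PB, and passed the filter only through PB.

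Of the genes for cell death, 0 were called higher and 2 lower in lung neutrophils than in PB, against 7.75% and 19.5% of all genes. *Bid*, a BH3-only protein cleaved by caspase-8, was 18.9 ± 0.761 FPKM in lung, 72.4 ± 1.90 in PB and 32.7 ± 0.386 in BM (SD, n = 3 each). *Bbc3*, which encodes the BH3-only protein PUMA, was 1.31 ± 0.224, 6.92 ± 0.617 and 2.52 ± 0.464 FPKM in the same order. Both were called lower in lung than PB, by −1.88 (limma adjusted p = 2.76e-08) and −1.78 (limma adjusted p = 1.12e-06), 2 of the 8 tested, and both were called higher in PB than BM. *Pmaip1*, which encodes NOXA, was higher than in BM in both lung (2.17) and PB (2.55). Its lung over PB difference was −0.38, where the median of all genes was −0.54, so its direction there depends on scaling. In the *Piezo1* experiment it was called lower in WT lung than WT PB, by −1.18 (limma adjusted p = 4.04e-07), as were *Bid* (−2.42) and *Bbc3* (−1.91). The median of all genes was −0.62 there, so whether *Pmaip1* reaches the fold for a call depends on scaling.

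Among the DNA repair targets, 4 could differ either way between lung and PB, and 1 of them was called lower, against 19.5% of all genes. *Xpc*, the damage sensor of nucleotide excision repair, was 6.98 ± 0.178 FPKM in lung, 57.1 ± 1.97 in PB and 22.1 ± 0.987 in BM (SD, n = 3 each), a lung over PB difference of −2.86 (limma adjusted p = 4e-09). *Ercc5*, the endonuclease of the same pathway, was 2.92 in lung and 0.790 in PB, and passed the filter only through lung. Of all 56 other genes of the pathway, 31 could be read for lung over PB once 2 that passed through 1 tissue alone are left out. Of these 2 were called higher and 9 lower, against 7.75% and 19.5% of all genes. For lung over BM, 31 could be read once 5 are left out, with 5 higher and 10 lower, against 9.86% and 36.0%. For PB over BM it was 32 once 3 are left out, with 8 higher and 2 lower, against 7.85% and 14.1%. With the genes that passed through 1 tissue alone kept in, limma called 19 of 36 for lung over BM and limma-voom 11. Limma-voom called 13 for PB over BM and 11 for lung over PB. Over all genes it called 3638 of 8236 for lung over BM, 2421 of 8237 for PB over BM and 1928 of 7577 for lung over PB. For lung over PB of the *Piezo1* experiment, 27 could be read in WT, with 2 higher and 10 lower, against 7.50% and 26.5% of all genes. In cKO 27 could be read, with 2 higher and 11 lower, against 7.93% and 23.0%. In both experiments *Plk3* and *Plk2* were called higher in WT lung than PB, and *Bid*, *Bbc3*, *Xpc* and *Ppm1d* were called lower.

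**Figure D3:**
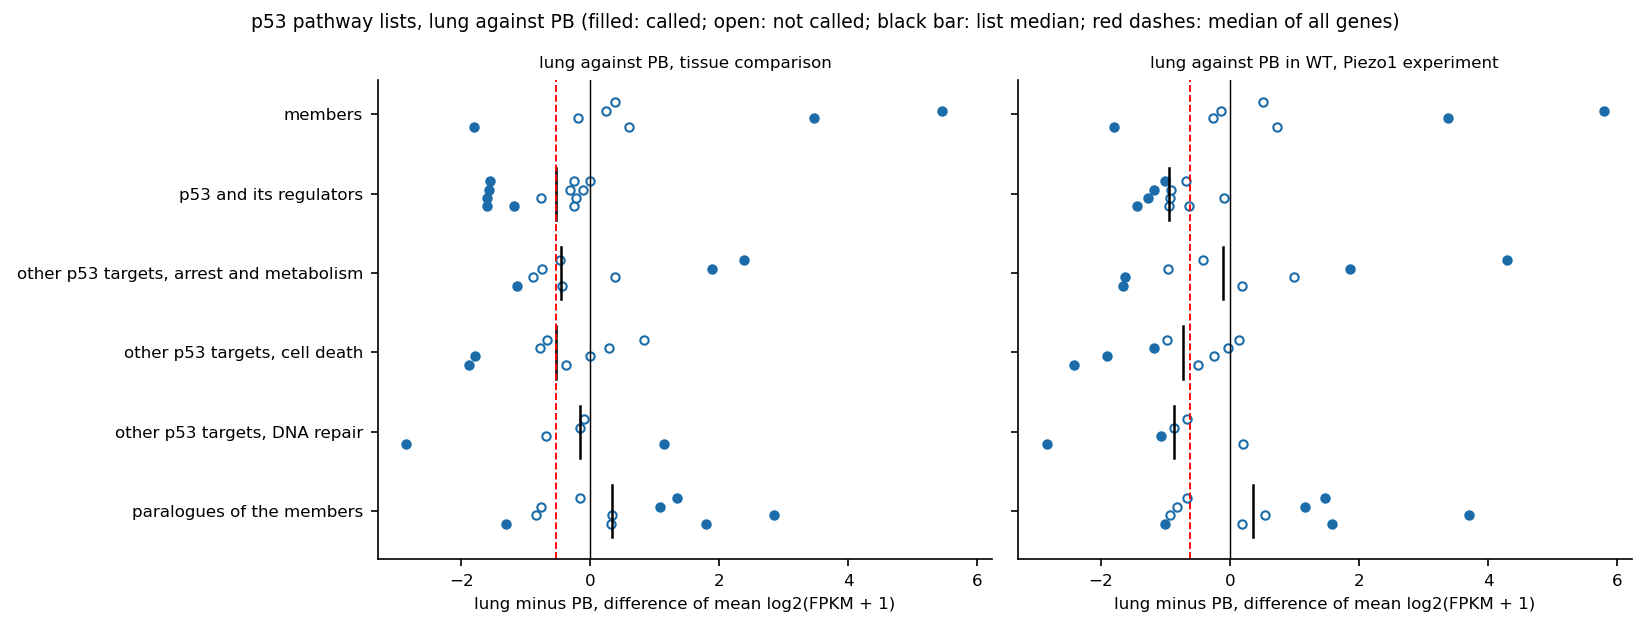
Lung minus PB difference of mean log2(FPKM + 1) for the members, the other p53 pathway lists and the paralogues, with 1 point per tested gene, filled where called, a black bar at the median of each list other than the members and red dashes at the median of all genes. In both panels the rightmost points of the arrest and metabolism list are *Plk3* and *Plk2*, and the leftmost point of the repair list is *Xpc*.

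Paralogues of the members show which changes belonged to single genes of a family. Of 10 tested for lung over PB, *Btg3* passed only through lung. Of the 9 left without it, 3 were called higher (*Phlda1* 2.84, *Trp53inp2* 1.80 and *Ccng2*) and 1 lower (*Tob1* −1.31). Over all genes, 7.75% were called higher and 19.5% lower. *Phlda1* was thus higher in lung where *Phlda3* was near the floor, and *Trp53inp2* was higher where *Trp53inp1* was lower. In WT of the *Piezo1* experiment 4 paralogues were called higher and 1 lower, against 7.50% and 26.5% of all genes, with *Phlda1* at 3.71, *Btg3* at 1.58 and *Trp53inp2* at 1.48. The 18 proliferation genes repressed downstream of p21 summed to 120 to 124 FPKM in BM, 3.11 to 5.40 in PB and 4.24 to 4.40 in lung. Of the 15 that passed the filter for lung over BM, 14 did so only through BM, as did 15 of 16 for PB over BM, so their difference from BM is a description.

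In lung, deletion of *Piezo1* left the members within 0.43 of WT on the log2 scale. *Cdkn1a* was 387 and 389 FPKM in WT and 347 and 356 in cKO, a log2 difference of −0.14 (limma adjusted p = 0.00255), with both cKO libraries below both WT libraries. *Gadd45b* was lower in cKO too, by −0.15 (limma adjusted p = 0.00211). *Btg2* was higher, by 0.24 (limma adjusted p = 0.000118), *Gadd45a* by 0.32 (limma adjusted p = 0.000423) and *Trp53inp1* by 0.43 (limma adjusted p = 0.00323). *Ccng1* (0.14, limma adjusted p = 0.0702) and *Mdm2* (−0.13, limma adjusted p = 0.09) did not pass. No member reached the fold for a call, so 0 of 7 were called by limma against 0.793% of 6434 genes called higher and 0.202% lower, and limma-voom on the recovered reads also called 0. At an unadjusted p under 0.05 there were 6 of 7, beside 57.4% of all genes, and by adjusted p alone 5 of 7, beside 50.7% of all genes by adjusted p alone.

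In PB the members are described without a test, since *Cdkn1a* in this contrast is what brought the set to attention. *Cdkn1a* was 5.74 and 6.25 FPKM in WT PB and 1.17 and 1.25 in cKO PB, and the groups did not overlap. The reads behind these values were 154 and 191 in WT and 23 and 36 in cKO. The WT mean of 5.99 ± 0.361 FPKM was 4.95-fold the cKO mean of 1.21 ± 0.0526 (SD, n = 2 each), a log2 difference of −1.66 with the pseudocount of 1 and −2.215 with a pseudocount of 0.1. *Cdkn1a* ranked 4068 of 15148 detected genes in WT PB and 6673 of 12193 in cKO PB. The other members differed less. *Btg2* was 747 and 757 FPKM in WT and 511 and 492 in cKO, a log2 difference of −0.58, and *Ccng1* was 13.6 and 15.2 in WT and 20.2 and 18.3 in cKO, a difference of 0.40. *Trp53inp1* (0.15), *Gadd45a* (0.11), *Mdm2* (−0.11) and *Gadd45b* (−0.10) lay closer to 0, and the libraries of *Gadd45b* overlapped between genotypes. Among all 7256 genes of this contrast, 1.68% were called higher and 1.97% lower, and nothing about the members is read from that share.

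Other values also differed between the WT and cKO libraries. The erythroid list summed to 24.9 and 26.8 FPKM in WT PB and 1011 to 1136 in cKO PB, with *Hba-a1* at 10.04 in WT and 441 in cKO. In lung it summed to 5.32 to 5.44 in WT and 0.530 to 1.74 in cKO. *Fkbp5*, a glucocorticoid-induced gene, was higher in cKO in both tissues, at 8.64 against 19.5 FPKM in lung and 22.0 against 53.8 in PB. The immediate early and dissociation list summed to 20590 to 20918 FPKM in cKO lung, against 23457 to 23682 in WT lung. In PB its sum was 20904 to 21979 in cKO and 23931 to 24211 in WT. The neutrophil list summed to 69737 to 74096 in cKO lung, against 91157 to 94577 in WT lung. In PB that sum was 114118 to 129120 in cKO and 136023 to 139753 in WT. The lowest library by depth was also a cKO PB library. The part of any of these in the member values was not tested.

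Set side by side, the cKO over WT difference of *Cdkn1a* was −0.14 in lung and −1.66 in PB, and the lung value minus the PB value was 1.52. For *Btg2* it was 0.83, for *Trp53inp1* 0.28, for *Ccng1* −0.26, for *Gadd45a* 0.21, for *Gadd45b* −0.05 and for *Mdm2* −0.02. These are descriptions. In the other genes of the p53 pathway, 0 of 30 tested were called between WT and cKO in PB by limma, with 12 at an unadjusted p under 0.05 and 10 by adjusted p alone, and limma-voom called 2. Over all 7256 genes of that contrast, 56.9% passed an unadjusted p under 0.05 and 3607 passed adjusted p alone, and limma-voom called 737. In lung, 0 of 29 were called, with 20 at an unadjusted p under 0.05, 18 by adjusted p alone and 0 by limma-voom. Over all 6434 genes there, 57.4% passed an unadjusted p under 0.05 and 3265 passed adjusted p alone, and limma-voom called 348. *Pmaip1* had the largest lung difference of the pathway genes, at 36.5 FPKM in WT and 63.3 in cKO (0.78), and *Trp53* was 3.03 and 3.38 in WT lung and 5.48 and 4.55 in cKO lung (0.51). In PB *Trp53* was 7.12 and 6.86 in WT and 6.56 and 6.50 in cKO. For the difference between tissues in the effect of genotype, 9 of 30 pathway genes were called higher and 3 lower by adjusted p alone once 2 that passed through 1 group alone are left out, against 29.7% and 18.5% of 7560 genes. They included *Pmaip1* (0.84) and *Trp53* (0.60) on the higher side and *Ei24* (−0.59) and *Ppm1d* (−0.58) on the lower side.

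**Figure D4:**
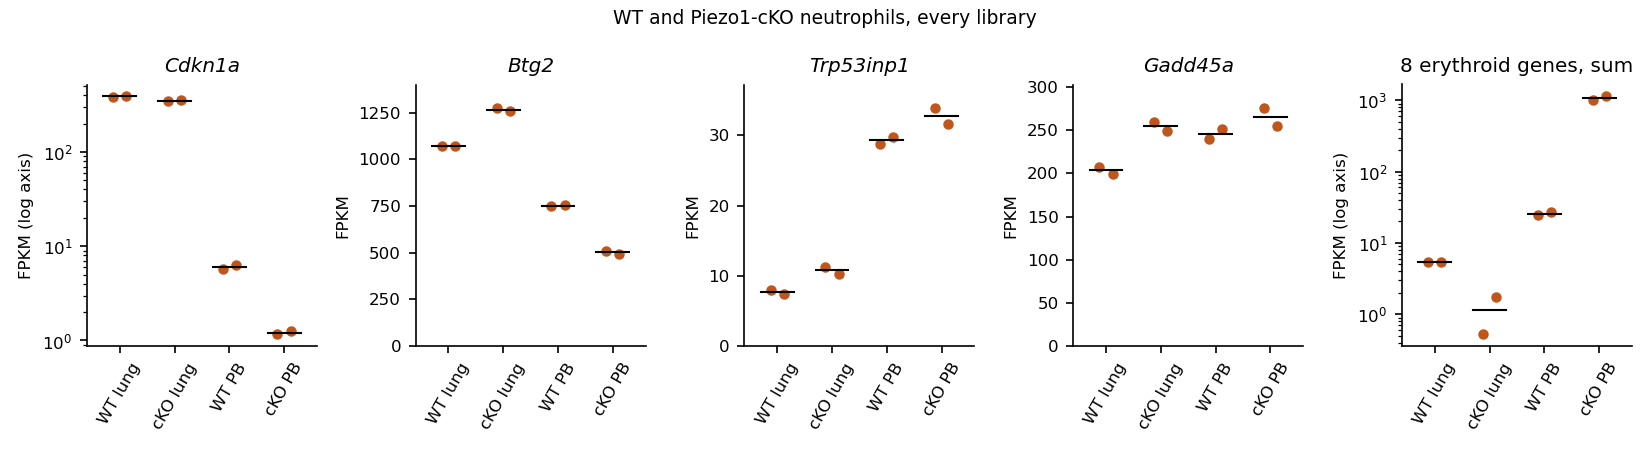
FPKM of 4 members and the summed FPKM of 8 erythroid genes in the WT and cKO libraries, with 1 point per library and a bar at each mean of 2 (log axes for *Cdkn1a* and the erythroid sum). *Cdkn1a* is 5.74 and 6.25 in WT PB and 1.17 and 1.25 in cKO PB, its 4 lung libraries lie between 347 and 389, and the erythroid sum is highest in cKO PB.

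In whole lung, *Cdkn1a* was 18.9, 19.6 and 21.7 FPKM in control mice and 44.3, 25.6 and 39.3 after depletion of neutrophils. All 3 depleted libraries lay above all 3 controls, and their spread was larger, with means of 20.1 ± 1.505 and 36.4 ± 9.68 FPKM (SD, n = 3 each). The ratio of means was 1.82, a log2 difference of 0.80 (SE 0.19) that did not pass correction (limma adjusted p = 0.216, and 0.0874 to 0.484 over the alternatives). It ranked 73 of 13990 genes by log2 difference. *Trp53inp1* was 19.4, 16.3 and 14.8 in control and 19.5, 23.8 and 23.6 in depleted lung, a difference of 0.39 (limma adjusted p = 0.301), and *Gadd45a* was 5.99, 6.66 and 6.52 against 5.09, 5.14 and 4.80, a difference of −0.30 (limma adjusted p = 0.246). *Mdm2* was 9.68, 10.8 and 9.47 against 10.1, 9.87 and 9.52, *Btg2* 63.6, 72.9 and 65.0 against 70.1, 58.7 and 72.9, and *Gadd45b* 35.4, 38.3 and 41.4 against 40.5, 40.9 and 39.6. The libraries of these 3 genes overlapped between groups. *Ccng1* was 36.0, 30.5 and 33.8 in control and 36.6, 34.5 and 36.8 in depleted lung. *Phlda3*, near the floor in neutrophils, was 22.8, 23.3 and 16.8 in control and 19.7, 20.8 and 20.8 in depleted lung.

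By limma 0 of the 8 members were called, against 0% of 13990 genes called higher and 0.00715% lower, and 3 of the 8 passed an unadjusted p under 0.05, as did 11.2% of all genes. The 1 gene called was *Aqp5*, named after its value was seen, a water channel of alveolar type I cells at 76.5 FPKM in control and 26.2 in depleted lung (−1.51, limma adjusted p = 0.0211). Of the other p53 pathway genes, 0 of 50 tested were called, with 6 at an unadjusted p under 0.05. *Trp53* ran from 10.5 to 11.8 FPKM in control and from 8.62 to 9.46 in depleted lung. The neutrophil marker list summed to 285, 239 and 245 FPKM in control and 145, 139.8 and 56.3 in depleted lung, below the controls in all 3 libraries, while *Ly6g* itself was at most 0.577 FPKM in either group. The glucocorticoid list summed to 118, 112 and 165 in control and 246, 268 and 327 in depleted lung, and 7 of its 8 genes passed an unadjusted p under 0.05, 0 after adjustment. The B cell list ran from 171 to 189 in control and from 109 to 145 in depleted lung (5 of 5 genes at an unadjusted p under 0.05), the fibroblast list from 275 to 310.2 and from 195 to 256 (3 of 5), and the immediate early list from 528 to 602 and from 454 to 492 (8 of 17). The part of these lists in the *Cdkn1a* values was not tested.

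**Figure D5:**
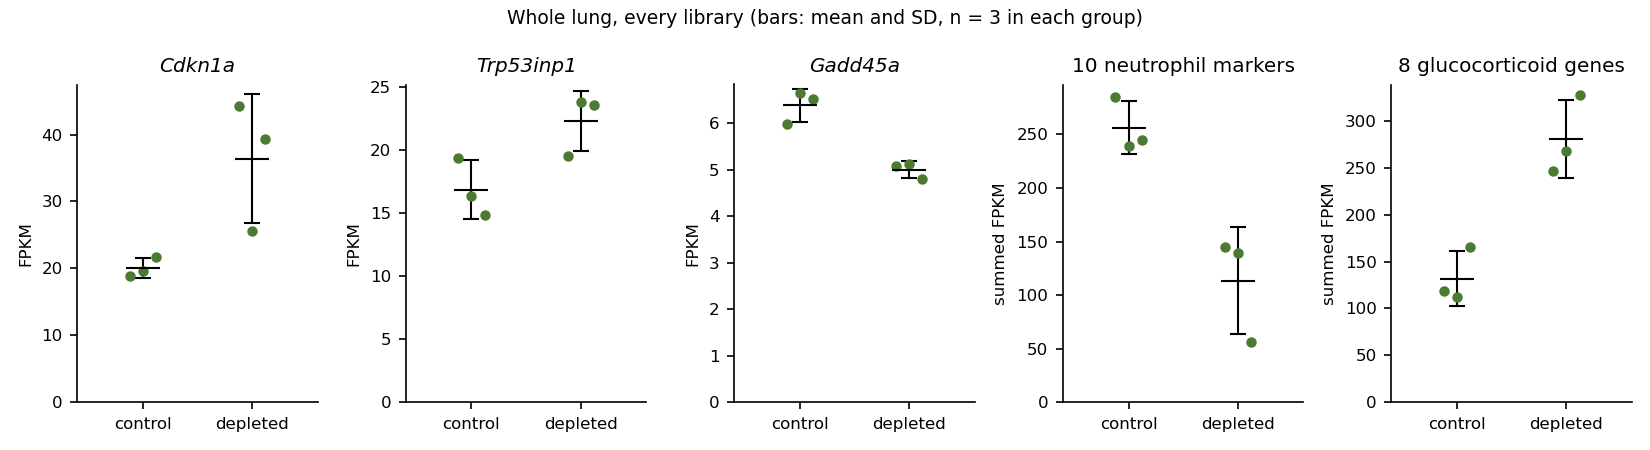
FPKM of 3 members and the summed FPKM of 10 neutrophil markers and 8 glucocorticoid genes in control and neutrophil-depleted whole lung, with 1 point per library and bars for the mean and SD (n = 3 each). *Cdkn1a* is 18.9 to 21.7 in control and 25.6 to 44.3 in depleted lung, while the neutrophil marker sum is 239 to 285 in control and 56.3 to 145 in depleted lung.

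The genes whose pattern was most like that of *Cdkn1a* were ranked by the mean of 2 Pearson correlations on log2(FPKM + 1), over the 9 libraries of the tissue comparison and the 8 of the *Piezo1* experiment, among 5939 genes. These are descriptions with no p, and the points fall into tissue clusters and share libraries and depth. The 5 highest were *Sra1* (r = 0.998 and 0.998), *Slc16a3* (0.998 and 0.998), *Srrd* (0.996 and 1.00), *Nfkb2* (0.997 and 0.998) and *Gch1* (0.996 and 0.999). *Nfkb2*, which encodes the p100 subunit of NF-kB, averaged 231 FPKM in lung, 26.1 in PB and 14.2 in BM, and 76.6, 82.1, 18.1 and 11.1 in WT lung, cKO lung, WT PB and cKO PB. *Slc16a3*, the lactate exporter MCT4, averaged 789, 233 and 156 FPKM in the 3 tissues, and 916, 938, 178 and 130 in the 4 groups of the *Piezo1* experiment. *Gch1*, the first enzyme of tetrahydrobiopterin synthesis, averaged 29.7, 5.90 and 3.995 FPKM in the 3 tissues and 54.9, 50.6, 12.4 and 8.07 in the 4 groups. The other members fell at rank 63 (*Gadd45b*), 541 (*Btg2*), 916 (*Ccng1*), 1065 (*Gadd45a*), 2826 (*Mdm2*) and 5856 (*Trp53inp1*, r = −0.996 and −0.979). Of the members, *Gadd45b* thus ran closest to *Cdkn1a*, and *Trp53inp1* opposite to it.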

How the data were processed

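Bulk RNA-Seq was measured in 17 libraries of sorted mouse neutrophils and 6 of whole lung. The authors trimmed reads with fastp, aligned them with HISAT2 and counted genes with HTSeq on mm10 (versions not given in the sources used here), and deposited FPKM values, which are normalised to transcript length and library total. The labels name a SMARTER mRNA kit and the study's methods a VAHTS kit. The tables of the *Piezo1* experiment also hold columns of the authors' own comparisons, fold changes and p-values among them, which were not used. The members and the gene lists were chosen with earlier results of these data known.

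FPKM was transformed to log2(FPKM + 1) and fitted with limma 3.58.1 in R 4.3.3 (empirical Bayes with trend and robust settings), with p-values adjusted by Benjamini-Hochberg over all tested genes. Only the groups compared entered each fit, except for the difference of the genotype effect between tissues. Genes needed an FPKM of at least 1 in 3 libraries, or in 2 in the *Piezo1* experiment. Calls needed an adjusted p below 0.05 and a log2 difference above 1 in size, or 0.5 in whole lung, and an adjusted p alone for the difference between tissues in the genotype effect. The main test was kept on the deposited unit, FPKM. The deposited FPKM steps gave whole reads (tolerance 0.03) for 100.0% of 13595 and 15844 genes in the sorted experiments, and limma-voom was run on those reads as an alternative. In whole lung 52.0% came out whole, so its depth is unknown. Intervals of depth cover counting error only. The script was tested on simulated data.

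All 8 members are named in every comparison. From each other list, at most the 3 called genes with the largest change and a mean FPKM of at least 1 are named per comparison, with *Trp53* always and the 5 genes most like *Cdkn1a*. Genes whose filter was passed through 1 group alone are given with no test, a choice made after their values were seen. Other genes named are those of a marker list beside a result, a count of 5 or fewer, the largest of a list with no call, or the same gene in a second comparison, and were chosen after their values were seen. Sequences are those of RefSeq for GRCm38.p6, computed with Python 3.11.15. Alternatives were a rescaling by the median ratio, a pseudocount of 0.1, no filter, all libraries in 1 fit, adjusted p alone, limma-voom, leaving out each library and a replicate block.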

Additional observations from a re-analysis of the deposited data

Results flagged for a closer look

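The genotype comparisons of *Btg2* and *Fdxr* were set apart by how they ran in lung and PB. The cKO over WT log2 difference of *Btg2* was 0.24 (0.243) in lung, where both cKO libraries lay above both WT libraries, and −0.58 (−0.5847) in PB, where both lay below. This difference in direction was not tested. The genotype effect on *Fdxr* was larger in lung than in PB by 1.3 on the log2 scale, with means of 0.304 FPKM in WT and 0.895 in cKO lung and 1.54 in WT and 0.532 in cKO PB, so it passed the filter of 1 FPKM only through WT PB, where it is high, and the difference is a description.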

How the results depend on the processing

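The main member counts were 4 called for lung over BM, 3 for PB over BM, 3 for lung over PB, 0 for cKO over WT in lung, 3 and 4 for lung over PB in WT and cKO, and 0 for depleted whole lung. Requiring adjusted p alone gave 7 for lung over BM, 6 for PB over BM, 6 for lung over PB, 5 for cKO over WT in lung, and 7 and 6 for lung over PB in WT and cKO. Over all genes the same rule passed 7628 of 8236, 6023 of 8237, 6479 of 7577, 3265 of 6434, 6360 of 7143 and 6054 of 7163. Limma-voom gave 5 for lung over PB and 5 in WT, and rescaling gave 5 in WT. Over all genes these called 1928 of 7577, 2338 of 7143 and 1615 of 7143, in that order. The counts for lung over PB in WT and cKO include *Cdkn1a*, whose PB values were in view, so nothing is read from them for it. Among other pathway genes in PB between genotypes, 0 were called, but 10 by adjusted p alone, 2 by limma-voom and 2 with a pseudocount of 0.1. Over all genes these settings called 265, 3607, 737 and 672 of 7256, in that order. For the difference between tissues in the genotype effect, 13 were called, but 1 (*Fdxr*) with a fold limit and 20 with no filter. Over all genes, 3647 of 7560 were called, 518 of 7560 with the fold limit and 5509 of 17527 with no filter. Leaving out 1 library gave 3 to 4 members for lung over BM and 2 to 3 for PB over BM, since *Cdkn1a* then no longer passes the filter when a library of the tissue in which it is high is absent. It gave 3 to 3 for lung over PB, 0 to 0 for cKO over WT in lung, 3 to 3 and 4 to 4 for lung over PB in WT and cKO, 0 to 0 in whole lung, 0 to 1 pathway genes in PB (*Fdxr* without cKO PB replicate 2) and 8 to 13 for the difference between tissues (8 without WT PB replicate 2).

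Rescaling took *Trp53inp1* under the fold limit for lung over PB in cKO (−0.97). Some small member differences changed sign, and the cause was not tested. After rescaling and by limma-voom, *Mdm2* was 0.32 and 0.45 and *Ccng1* 0.46 and 0.59 for lung over BM, *Mdm2* was 0.38 and 0.43 for lung over PB, 0.48 and 0.57 in WT and 0.39 and 0.46 in cKO, and *Gadd45a* was 0.37 and 0.44 in WT and 0.52 and 0.57 in cKO. For the difference between tissues in the genotype effect, leaving out 1 library gave −0.04765 to 0.01033 for *Mdm2* and −0.1459 to 0.03871 for *Gadd45b*, above 0 without WT lung replicate 1 and without cKO PB replicate 2. In whole lung *Mdm2* was 0.01807, *Btg2* 0.03838 and *Phlda3* 0.01505 after rescaling. Leaving out 1 whole-lung library gave −0.05285 to 0.03201 for *Mdm2*, −0.06339 to 0.09077 for *Btg2* and −0.169 to 0.05423 for *Phlda3*.

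Libraries with the same replicate number did not deviate together, with correlations of −0.102 to 0.106, so the numbers were not taken as pairs. With a replicate block the counts were 4 for lung over BM, 3 for PB over BM, 3 for lung over PB, 0 for cKO over WT in lung, 3 and 4 for lung over PB in WT and cKO, 0 in whole lung, and 0 and 13 pathway genes in PB and for the difference between tissues. Limma-voom was not run on whole lung. With 2 libraries per group in the *Piezo1* experiment, and 23 to 191 reads of *Cdkn1a* in its PB libraries, small differences there are imprecise.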
